A study of Mus musculus with 30 samples.

Results

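The genes described here are 8 genes of TGF-beta signalling and of the provisional wound matrix, out of 20321 genes in the deposited tables. They were chosen by symbol: the ligands Tgfb1, Tgfb2 and Tgfb3, and the matrix genes Tgfbi, Postn, Tnc, Fn1 and Thbs1. All 8 were found and all 8 passed the filter on low counts. RNA was sequenced from the distal phalanx (P3) of hindlimb digit 3 of 30 adult male C57Bl/6 mice, aged 9 to 10 weeks, after amputation of at most 33% of the phalanx. The mice carried no transgene or further treatment that the sources name, every mouse was amputated, and the 0 h mice were sampled at amputation and served as the reference. Tissue was taken at 0 h, 3 h, 6 h, 12 h and 24 h and, in days, at 3 d, 7 d, 14 d and 21 d, from 6 mice at 7 d and from 3 at every other time. Each library was 1 mouse, so the spread given is between mice, and mice are numbered here in the order of their records.

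TGF-beta is secreted in a latent form that is bound to latent TGF-beta binding proteins in the matrix and is released by integrins, proteases or thrombospondin. The active ligand binds a type II and a type I receptor, which phosphorylate Smad2 and Smad3, and the Smads then enter the nucleus with Smad4. In healing skin and bone, platelets, macrophages and mesenchymal cells are known sources of the ligands. The first matrix of a wound holds fibrin and fibronectin and is later enriched in matricellular proteins such as tenascin-C, periostin and thrombospondin-1, which bind integrins and collagen, while TGFBI is a secreted adhesion protein named for its induction by TGF-beta.

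In the GRCm38 build, Tgfb1 (ENSMUSG00000002603) lies at chr7:25687002-25705077 on the plus strand, Tgfb2 (ENSMUSG00000039239) at chr1:186622792-186705989 on the minus strand and Tgfb3 (ENSMUSG00000021253) at chr12:86056745-86079041 on the minus strand. Tgfbi (ENSMUSG00000035493) lies at chr13:56609523-56639562 on the plus strand and Postn (ENSMUSG00000027750) at chr3:54361109-54391037 on the plus strand. Tnc (ENSMUSG00000028364) lies at chr4:63959785-64047015 on the minus strand, Fn1 (ENSMUSG00000026193) at chr1:71585520-71653200 on the minus strand and Thbs1 (ENSMUSG00000040152) at chr2:118111876-118127133 on the plus strand. No exon of these genes overlapped an exon of another gene of the table.

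The RefSeq promoter table of build GRCm38.p6 held 7 promoters of 5 of the 8 genes, each with 250 bases before and 50 after the start. A pair of ligand promoters and a pair of matrix promoters are shown. The ligand pair differs in base composition and in the TATA box, while all the genes shown changed over time in the same mice. Tgfb1 stands for a ligand, without the box, and Tgfb2 for one with it. Postn and Tnc are the matrix genes with the highest log2 fold changes at 21 d, and for each the start with a TATA box was taken from the 2 listed. Capitals mark TATAA where it lies between 40 and 20 bases before the start, and the short Smad-binding letters CAGAC or their complement GTCTG. A further TATAA of the Tnc sequence, outside that window, is in lower case.
Tgfb1, chr7:25686752-25687051, plus strand: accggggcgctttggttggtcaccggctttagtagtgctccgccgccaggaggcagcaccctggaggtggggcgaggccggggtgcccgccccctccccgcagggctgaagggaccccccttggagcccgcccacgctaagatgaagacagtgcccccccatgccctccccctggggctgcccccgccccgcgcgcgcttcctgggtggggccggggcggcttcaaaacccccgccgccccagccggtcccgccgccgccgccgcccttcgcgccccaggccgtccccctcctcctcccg
Tgfb2, chr1:186705940-186706239, minus strand: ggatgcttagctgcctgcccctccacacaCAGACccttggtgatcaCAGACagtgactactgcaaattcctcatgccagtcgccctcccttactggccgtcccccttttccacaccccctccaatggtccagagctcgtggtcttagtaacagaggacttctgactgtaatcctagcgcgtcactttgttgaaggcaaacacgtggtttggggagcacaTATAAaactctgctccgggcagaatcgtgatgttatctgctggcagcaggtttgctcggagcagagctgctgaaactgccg
Postn, chr3:54360857-54361156, plus strand: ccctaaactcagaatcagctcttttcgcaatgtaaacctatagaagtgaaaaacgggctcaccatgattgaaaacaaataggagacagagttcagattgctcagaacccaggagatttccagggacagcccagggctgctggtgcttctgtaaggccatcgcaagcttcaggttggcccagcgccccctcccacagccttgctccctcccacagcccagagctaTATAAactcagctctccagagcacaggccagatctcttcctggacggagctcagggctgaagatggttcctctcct
Tnc, chr4:64046887-64047186, minus strand: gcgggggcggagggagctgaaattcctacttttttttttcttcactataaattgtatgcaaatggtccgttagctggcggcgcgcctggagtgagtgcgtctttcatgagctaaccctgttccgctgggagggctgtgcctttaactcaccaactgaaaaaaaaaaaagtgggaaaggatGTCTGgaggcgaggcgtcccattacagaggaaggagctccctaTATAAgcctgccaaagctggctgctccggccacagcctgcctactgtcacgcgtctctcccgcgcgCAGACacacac
TATAA began 31 bases before the start in Tgfb2, 26 before it in Postn and 27 before it in Tnc. Of 32851 mouse promoters in the table, 3.38% held TATAA between 40 and 20 bases before the start. The Postn and Tnc starts were picked for the box, and it was searched after the sequences were seen, so this share is no test of them. The other listed starts of Postn and Tnc and the Tgfbi promoter held no TATAA there. Tgfb1 held none there, and its 300 bases were 77% G or C, against a median of 52.7% over the table, 54.3% in Tgfb2, 53% in Postn and 54% in Tnc. CAGAC, searched on both strands, was at positions -221 and -204 of Tgfb2 and at -70 and 40 of this Tnc promoter, and 49.6% of all promoters held it at least once. The AP-1 letters TGANTCA (7.81% of all promoters), the CRE letters TGACGTCA (1.79%) and the TEAD letters GGAATG (14.7%), searched on both strands, were in none of the 7 promoters. A match is a description of the letters and not of binding.

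The summed expected counts of a mouse lay between 3167625 and 16277816. By the date in its sample title, each mouse belonged to 1 of 2 blocks: 16 July-August mice had a median total of 5083528, and 14 November-January mice one of 9836324. All mice at 3 h and 12 h are July-August and all at 21 d November-January, while 0 h has 1 July-August mouse (mouse 3) and 2 November-January mice. At 7 d, 3 mice are labelled left foot and the others right foot. Defining markers of skin, bone and connective tissue were present in every mouse at 0 h. Summed TPM (transcript abundance per length, relative to all RNA of a mouse) were 58624 to 63981 for 6 keratinocyte markers, 162 to 356 for 6 osteoblast markers and 2894 to 4623 for 6 fibroblast markers.

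All 8 genes, which were chosen with earlier results of these data known, changed over the 9 time points. In edgeR's quasi-likelihood test over time, with Benjamini-Hochberg adjustment, 9.01% of the 13793 genes tested passed the adjusted p of 0.05, and adjusted p was 0.000368 for Tgfb1, 0.00298 for Tgfb2, 9.4e-07 for Tgfb3 and 0.0116 for Tgfbi. It was 0.000107 for Postn, 8.19e-06 for Tnc, 0.00264 for Fn1 and 0.000476 for Thbs1. No single mouse left out, and none of 7 other settings, ended one of these 8 calls. In bulk tissue, more cells of a type and more RNA per cell cannot be told apart.

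Few of the 8 genes passed against 0 h in the first day, and most passed at 21 d. Against 0 h, none of the 8 genes passed at 3 h (0.254% of all genes tested passed), with 2 at an unadjusted p under 0.05 in edgeR and 0 by DESeq2 after adjustment. One, Tgfb3, was lower at 6 h (0.189%), and Tnc was higher at 12 h (0.167%) and 24 h (0.493%). Tgfbi and Tnc were higher at 3 d (0.551%), and Tgfbi, Postn and Tnc at 7 d (2.34%). At 14 d, 4 genes were higher (1.61%), namely Tgfb1, Tgfbi, Postn and Tnc. At 21 d, 6 of 8 were higher (1.94%), and the 2 that did not pass were Tgfb2 and Thbs1. The median log2 fold change of the 8 genes was -0.51 at 6 h, 0.76 at 7 d, 1.18 at 14 d and 1.36 at 21 d. The median over all genes tested lay between -0.015 and 0.011 at every time, where the normalization of the counts holds it near 0. All these comparisons share the same 3 mice at 0 h.

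**Figure D1:**
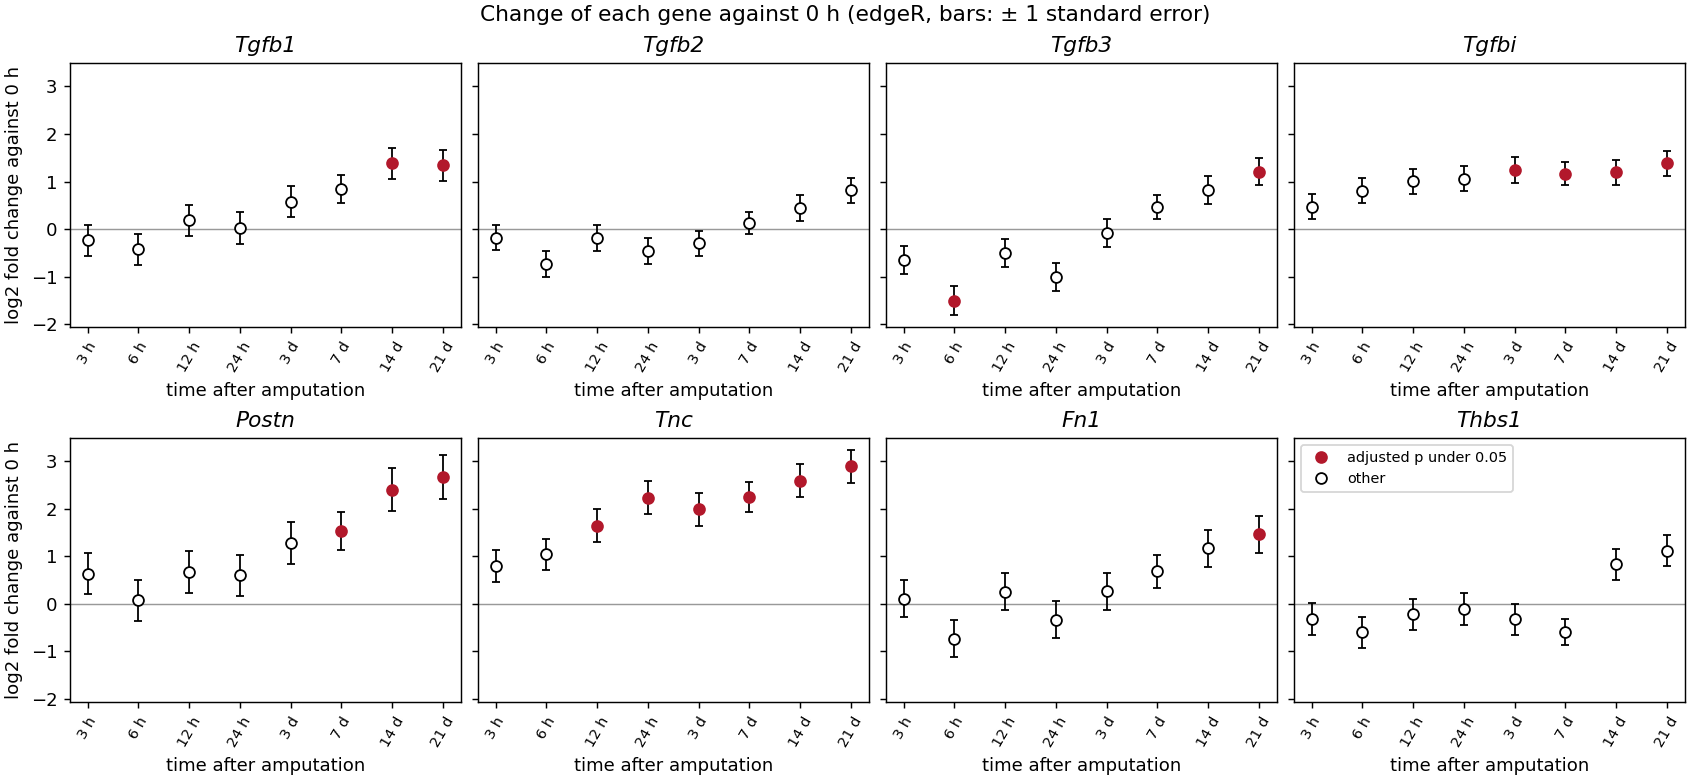
Log2 fold change of each of the 8 genes against 0 h (vertical axis) at each later time (horizontal axis) from the edgeR fit of all 30 mice; bars are ± 1 standard error and filled points have an adjusted p under 0.05. Tnc passed from 12 h on, Tgfbi from 3 d and Postn from 7 d, and the single filled point below 0 is Tgfb3 at 6 h (-1.51).

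Between neighbouring times, steps were rarely large enough to pass. Thbs1 rose from 7 d to 14 d (0.435% of all genes tested passed). None of the 8 genes passed at 6 h against 3 h (0.16%), 12 h against 6 h (0%), 24 h against 12 h (0%), 3 d against 24 h (0.0653%), 7 d against 3 d (0.0145%) or 21 d against 14 d (0%). At an unadjusted p under 0.05 in edgeR these 6 steps had 2, 2, 0, 1, 1 and 0 of the 8 genes, and DESeq2's test with adjustment also called none.

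Tgfb3 was the ligand with the highest level in 23 of 30 mice, against 4 for Tgfb2 and 3 for Tgfb1. At 0 h it made up 48.0% ± 4.03 (SD, n = 3) of the summed ligand TPM, with 31.02% ± 2.49 for Tgfb2 and 21.0% ± 2.69 for Tgfb1. At 6 h the shares were 33.0% ± 7.42 for Tgfb3, 36.5% ± 8.39 for Tgfb2 and 30.5% ± 7.39 for Tgfb1, and each ligand was the highest in 1 of the 3 mice. At 21 d they were 51.1% ± 2.013, 24.8% ± 2.07 and 24.0% ± 1.44, and Tgfb3 led in 3 of 3 mice. The summed TPM of the 3 ligands was 62.1 ± 10.5 at 0 h, 32.6 ± 2.21 at 6 h and 128 ± 15.2 at 21 d (SD, n = 3). These shares are a description, since TPM of different genes also depends on the transcript lengths assumed. Without division by length, Tgfb3 was the highest in 18 mice, Tgfb2 in 12 and Tgfb1 in 0, and at 6 h Tgfb2 led in 3 of 3. On that scale Tgfb2 had 41.4% and Tgfb1 12.8% at 0 h.

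**Figure D2:**
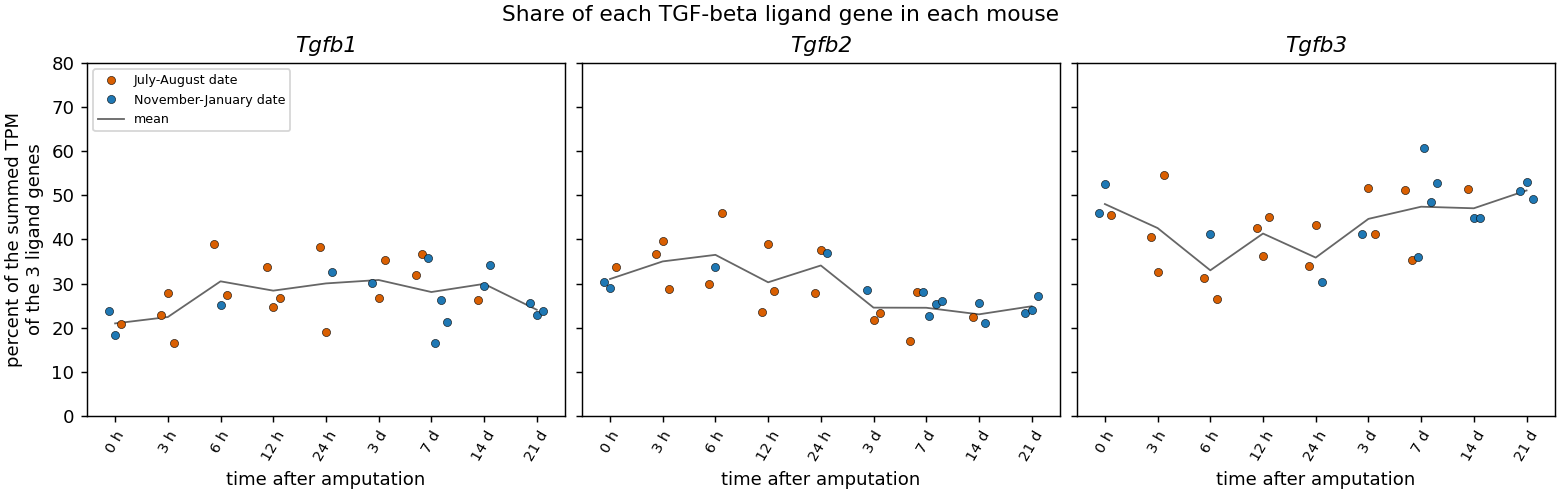
Percent of the summed TPM of Tgfb1, Tgfb2 and Tgfb3 held by each (vertical axis) in each of the 30 mice by time after amputation (horizontal axis), with points coloured by date block and a line through the means. The Tgfb3 mean was 48.0% at 0 h, 33.0% at 6 h and 51.1% at 21 d.

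Tgfb3, the ligand gene known for its part in palate fusion and in scarring, was the one gene of the 8 with a lower level that passed. Its TPM was 28.2, 38.5 and 23.6 in the 3 mice at 0 h, 20.2, 16.2 and 17.4 at 3 h, and 10.9, 12.5 and 8.64 at 6 h. The 3 mice at 6 h lay below every 0 h mouse, without overlap. The log2 fold change at 6 h was -1.51 (standard error 0.30, edgeR adjusted p = 0.0203). The difference of mean log2(TPM + 1) was -1.20 within the July-August mice (2 against 1) and -1.33 within the November-January mice (1 against 2). The call was lost without mouse 1 or 2 at 0 h or mouse 1 or 3 at 6 h (adjusted p from 0.106 to 0.294), in a fit of these 2 times alone (0.07) and with limma on log2(TPM + 1) (0.108). The summed fibroblast markers were 1562 to 3032 TPM at 6 h and 2894 to 4623 at 0 h. These ranges overlapped, and the part of the markers in this result was not tested.

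At 3 h and from 12 h to 14 d, Tgfb3 did not pass. It stood at 21.9, 30.4 and 19.4 TPM at 12 h, at 19.8, 16.7 and 7.97 at 24 h and at 24.4, 41.9 and 26.7 at 3 d. The ranges at 12 h and 3 d overlapped that at 0 h, while the mice at 3 h and at 24 h lay below every 0 h mouse (log2 fold change -1.01 at 24 h, edgeR adjusted p = 0.18). At 7 d it ran from 20.8 to 57.4 with a median of 44.5, and at 14 d it was 60.1, 51.0 and 54.2. The 21 d mice had 69.0, 73.1 and 54.1 TPM, all above the 0 h mice, with a log2 fold change of 1.21 (standard error 0.29, edgeR adjusted p = 0.0212) and a November-January difference of 0.96. This call was lost without mouse 1 or 3 at 0 h or mouse 1 or 2 at 21 d (0.0889 to 0.193) and with limma (0.114). From the 6 h mean of 10.7 ± 1.93 to the 21 d mean of 65.4 ± 10.0 the level differed 6.13-fold.

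Tgfb1 encodes the ligand most often studied in fibrosis and the form stored in platelets and bone. Its TPM was 14.6, 13.4 and 10.8 at 0 h, and the lowest and highest of the 12 mice from 3 h to 24 h were 5.24 and 22.4. Each of these 4 early times overlapped 0 h. At 3 d it was 17.9, 21.7 and 23.0, above every 0 h mouse, with a log2 fold change of 0.57 that did not pass (edgeR adjusted p = 0.857). At 7 d it ran from 15.5 to 34.7 with a median of 21.4 (log2 fold change 0.85, edgeR adjusted p = 0.138), and the highest were the 2 July-August mice at 34.3 and 34.7.

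Tgfb1 rose by 14 d. The 14 d mice had 30.7, 33.4 and 41.2 TPM and the 21 d mice 34.6, 31.4 and 26.1, and neither group overlapped 0 h. The log2 fold change was 1.39 at 14 d (standard error 0.32, edgeR adjusted p = 0.0185) and 1.34 at 21 d (0.32, 0.0213). Within the blocks, the 14 d difference of mean log2(TPM + 1) was 1.42 in July-August (1 mouse against 1) and 1.35 in November-January (2 against 2). The difference at 21 d was 1.074 in November-January (3 against 2). Both calls were lost without any one of the 0 h mice, without mouse 3 at 14 d or without mouse 1 or 2 at 21 d, with adjusted p from 0.0634 to 0.153 at 14 d and from 0.0592 to 0.175 at 21 d. With limma they were 0.0542 and 0.133. Tgfb1 was also the least deeply counted of the 8, with as few as 17 counts in a mouse.

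Tgfb2, the ligand known from heart and eye development, changed over time but passed at no single time against 0 h in the fit of all mice. Its TPM was 18.6, 21.2 and 17.6 at 0 h and 10.4, 10.3 and 14.9 at 6 h, which did not overlap, with a log2 fold change of -0.73 (standard error 0.27, edgeR adjusted p = 0.478). At 12 h 1 mouse had 32.8 and the others 12.1 and 12.1. At 14 d it was 26.1, 29.2 and 25.4 and at 21 d 31.5, 33.1 and 29.9, both above every 0 h mouse. At 21 d the log2 fold change was 0.82 (edgeR adjusted p = 0.156), and it passed in a fit of these 2 times alone (0.0173) and without mouse 2 at 12 h (0.0342). The range at 21 d also lay above that at 14 d, its neighbour in the order of means.

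**Figure D3:**
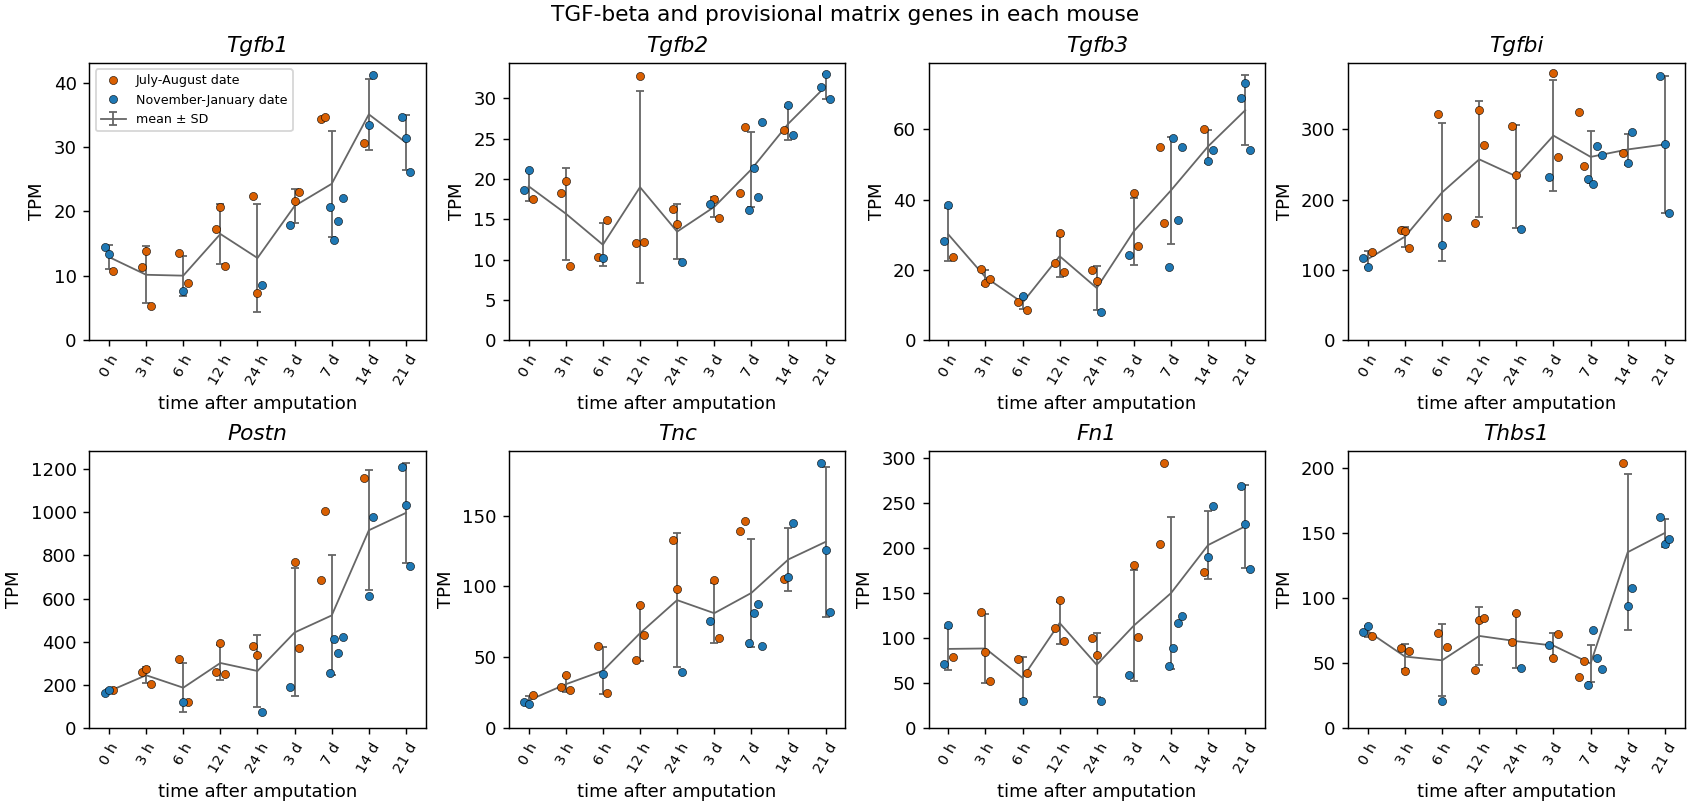
TPM of the 8 genes (vertical axes, from 0) in each of the 30 mice by time after amputation (horizontal axes), coloured by the date block of the sample title, with the mean ± SD of each time. Tnc means run from 19.4 at 0 h to 132 at 21 d and Postn means from 169.7 to 998, while the Thbs1 mean is lowest at 7 d (49.5).

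Tnc encodes tenascin-C, a hexameric matricellular glycoprotein that is sparse in resting skin and appears in wound edges. Of the 8 genes it was called at the most times, 6 of the 8. Its TPM was 18.1, 16.9 and 23.1 at 0 h and 28.6, 37.2 and 26.6 at 3 h, and these ranges did not overlap, though the 3 h log2 fold change of 0.79 did not pass. At 6 h it was 57.9, 38.2 and 24.9, and at 12 h 47.8, 87.1 and 65.8. The 12 h log2 fold change was 1.64 (standard error 0.34, edgeR adjusted p = 0.0317) with a July-August difference of 1.45, against the single 0 h mouse of that block. This call at 12 h was lost without any one of the 0 h mice or without mouse 2 or 3 at 12 h (0.0745 to 0.255), with the date block as a covariate (0.078) and with limma (0.0994).

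From 24 h on, the rise of Tnc was kept whichever single mouse was left out and under each of 8 other settings. The 24 h mice had 133, 98.5 and 39.3 TPM, the 3 d mice 75.3, 105 and 63.2, and the 7 d mice from 57.9 to 146 with a median of 84.7. None of these mice overlapped the 0 h range. The log2 fold change was 2.23 at 24 h (standard error 0.34, edgeR adjusted p = 0.000689), 1.98 at 3 d (0.34, 0.00187) and 2.25 at 7 d (0.32, 7.53e-05). Within the blocks the differences were 2.26 in July-August (2 mice against 1) and 1.13 in November-January (1 against 2) at 24 h. They were 1.77 and 2.04 at 3 d, with the same numbers of mice, and 2.57 (2 against 1) and 1.95 (4 against 2) at 7 d. The 1 November-January mouse at 24 h, with 39.3 TPM, also had the lowest fibroblast marker sum of the series (1303 TPM), and the part of that sum was not tested.

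The highest Tnc means were those at 14 d and 21 d. It was 106, 107 and 145 TPM at 14 d (log2 fold change 2.59, standard error 0.35, edgeR adjusted p = 5.91e-05) and 188, 125 and 81.7 at 21 d (2.88, 0.35, 8.91e-06). Every mouse at both times was above every mouse at 0 h, but the 3 mice at 21 d spanned the range of those at 14 d. Neighbours in the order of the 9 means overlapped except 0 h and 3 h.

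Tgfbi encodes a secreted adhesion protein of skin, cornea and bone that binds collagen and integrins. It was already abundant at 0 h, at 117, 104 and 126 TPM, and was 156, 155 and 131 at 3 h, above every 0 h mouse. It did not pass at 3 h, 6 h, 12 h or 24 h, with log2 fold changes of 1.007 at 12 h and 1.06 at 24 h (edgeR adjusted p = 0.0775 at 24 h). DESeq2's test called both (0.0363 and 0.012), and the 24 h value also passed in a fit of 2 times alone (0.0455) and in 4 fits without 1 mouse of another time (0.0346 to 0.0481). At 3 d it reached 233, 381 and 260 TPM (log2 fold change 1.24, standard error 0.27, edgeR adjusted p = 0.0209). Its mean TPM was highest there, at 291 ± 78.6 (SD, n = 3), while its log2 fold change was largest at 21 d (1.38). The 3 d call was lost without any one of the 0 h mice or without mouse 2 at 3 d (0.0803 to 0.18).

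After 3 d Tgfbi stayed level. It ran from 223 to 326 TPM with a median of 256 at 7 d, was 266, 253 and 296 at 14 d and 376, 279 and 181 at 21 d, with no mouse as low as any 0 h mouse. The log2 fold change was 1.17 at 7 d (standard error 0.24, edgeR adjusted p = 0.00577), 1.19 at 14 d (0.27, 0.0131) and 1.38 at 21 d (0.27, 0.00285). The within-block differences at 7 d were 1.17 in July-August (2 mice against 1) and 1.16 in November-January (4 against 2). At 14 d they were 1.0725 (1 against 1) and 1.30 (2 against 2). The 7 d call held without each single mouse. At 14 d the call was lost without any one of the 0 h mice or without mouse 3 at 14 d (0.0559 to 0.0785), and at 21 d without mouse 1 at 21 d (0.0667).

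Postn encodes periostin, a matricellular protein of periosteum, periodontal ligament and healing dermis that takes part in collagen assembly. Its TPM was 160.1, 175 and 174 at 0 h, a narrow range, and between 74.4 and 395 in the 12 mice from 3 h to 24 h. It did not pass at any time up to 3 d, when the mice had 189, 769.6 and 369. At 7 d it ran from 254 to 1008 with a median of 416, all above 0 h (log2 fold change 1.53, standard error 0.40, edgeR adjusted p = 0.036). The 2 July-August mice at 7 d were the highest, at 687 and 1008. The within-block differences were 2.25 in July-August (2 mice against 1) and 1.069 in November-January (4 against 2). The same 2 mice had the highest summed fibroblast markers (9152 and 10461 TPM) and macrophage markers (289 TPM in each, to the nearest whole number, against 39.9 to 70.3 in the other 4) at 7 d, and the part of these in the result was not tested. The 7 d call was lost without any one of the 0 h mice (0.123 to 0.185), without mouse 2 at 7 d (0.0541) and with limma (0.114).

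At 14 d Postn was 1159, 613 and 979 TPM and at 21 d 1208, 1034 and 751. No mouse at either time was below 3 times the level of any 0 h mouse. On the log2 scale the change was 2.40 at 14 d (standard error 0.45, edgeR adjusted p = 0.00264) and 2.66 at 21 d (0.46, 0.000866), with November-January differences of 2.20 and 2.54. Both calls were kept whichever single mouse was left out. In this bone-containing tissue, the summed fibroblast markers of the same mice were 16239 to 18163 TPM at 14 d and 13415 to 22445 at 21 d, and the osteoblast markers 1894 to 3347 and 2713 to 3411, above every 0 h mouse. Their part in the rise of Postn was not tested.

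Fn1 encodes fibronectin, which binds fibrin, collagen and integrins in the first wound matrix. Its TPM was 70.5, 114 and 78.8 at 0 h and 76.2, 29.8 and 60.6 at 6 h, the time with its lowest mean (55.5 ± 23.6, SD, n = 3). Levels overlapped 0 h at each time up to 7 d, where they ran from 69.2 to 295 with a median of 121, and the highest were again the 2 July-August mice at 204 and 295. At 14 d they were 174, 189.6 and 246 (log2 fold change 1.17, edgeR adjusted p = 0.194) and at 21 d 269, 227 and 177. The 14 d value passed with the date block as a covariate (0.0449) and in a fit of 2 times alone (0.0272). Both late groups lay above every 0 h mouse.

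The Fn1 call at 21 d was marginal. The log2 fold change was 1.45 (standard error 0.39, edgeR adjusted p = 0.0496) with a November-January difference of 1.29. Adjusted p rose above 0.05 in 20 of the 30 fits that each left out 1 mouse. It was 0.0689 to 0.355 without any one of the 0 h mice or without mouse 1 or 2 at 21 d, and 0.0521 to 0.0682 without any of 15 mice of other times. It was 0.0595 with DESeq2's size factors, 0.0523 with a filter of 1 CPM in 3 mice and 0.252 with limma.

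Thbs1 encodes thrombospondin-1, a matricellular protein of platelet granules and wound cells that can activate latent TGF-beta. Its mean TPM was lowest at 7 d (49.5 ± 14.6, SD, n = 6) and nearly as low at 6 h (52.0 ± 27.9, SD, n = 3). The log2 fold change against 0 h was also -0.60 at 6 h (edgeR adjusted p = 0.76). Thbs1 was 73.5, 78.7 and 70.6 TPM at 0 h and between 20.5 and 88.0 in the 15 mice from 3 h to 3 d. At 7 d it ran from 32.9 to 74.99 with a median of 48.2 (log2 fold change against 0 h -0.60, edgeR adjusted p = 0.336). It then stood at 204, 93.5 and 108 at 14 d and 163, 142 and 146 at 21 d. No mouse at 14 d or 21 d overlapped the mice at 7 d or at 0 h.

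The step of Thbs1 from 7 d to 14 d was a log2 fold change of 1.43 (standard error 0.27, edgeR adjusted p = 0.0095), with differences of 2.16 in July-August, where 14 d has 1 mouse, and 1.010 in November-January. It was lost without mouse 1 at 14 d, the July-August mouse with 204 TPM (0.296), and in a fit of these 2 times alone (0.155). Against 0 h, the log2 fold change was 0.83 at 14 d (edgeR adjusted p = 0.346) and 1.115 at 21 d (0.0898), neither of which passed in the fit of all mice. The 21 d value passed with DESeq2's test (0.0339), with the date block as a covariate (0.0375), in a fit of 2 times alone (0.00645) and without mouse 2 at 6 h (0.0341). Of the 9 platelet markers, 4 passed the filter on low counts, and of these 0 passed over time in edgeR, 1 at an unadjusted p under 0.05 and 0 by DESeq2. Their summed TPM was 52.6 to 64.5 at 0 h, 25.0 to 87.7 at 7 d and 46.4 to 63.4 at 14 d.

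Ranked by mean TPM, the times began with 0 h for Tgfbi, Postn and Tnc, with 6 h for Tgfb1, Tgfb2, Tgfb3 and Fn1 and with 7 d for Thbs1. They ended with 21 d for all but Tgfb1 (14 d) and Tgfbi (3 d). Neighbouring times in these orders overlapped in range except 0 h and 3 h for Tgfbi and Tnc, 0 h and 14 d for Thbs1 and 14 d and 21 d for Tgfb2. The orders were sorted by the same values, and most times have 3 mice. Such gaps, here and above, are a description, and their share over all genes tested was not counted.

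Genes around the ligands were then counted in lists that were chosen with earlier results of these data known. The counts are a description, given beside the 9.01% of all genes tested that passed over time. Of the latency and activation list, 7 of 15 genes tested passed (46.7%). The 4 with the lowest p were Ltbp2, a relative of the latent TGF-beta binding proteins, Fbn2, a microfibril protein, Emilin1, an elastic fibre protein that binds the TGF-beta precursor, and Plat, the tissue plasminogen activator. Against 0 h no gene of this list passed before 7 d, and those higher at 21 d were these 4. Emilin1 rose from 9.79 ± 1.54 TPM at 0 h to 36.2 ± 8.74 at 21 d (SD, n = 3, log2 fold change 1.98, edgeR adjusted p = 0.00296). Ltbp2 rose from 5.32 ± 0.529 to 17.6 ± 8.57 (1.84, 0.00101), Plat from 13.9 ± 1.83 to 35.5 ± 13.7 (1.47, 0.0151) and Fbn2, at low levels, from 0.643 ± 0.198 to 4.59 ± 2.21 (2.94, 0.0144). The 21 d calls of Ltbp2 and Emilin1 held without each single mouse, whereas that of Plat was lost without any one of the 0 h mice or without mouse 1 at 21 d (0.0618 to 0.282) and with limma (0.058), and that of Fbn2 without any one of the 0 h mice or without mouse 1 or 2 at 21 d (0.0667 to 0.1125).

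Of 9 genes of receptors and Smads tested, 2 passed over time (22.2%), Tgfbr1 and Zfyve9. Tgfbr1, the type I receptor, was 25.7 ± 3.43 TPM at 0 h (SD, n = 3) and 60.1 ± 28.3 at 7 d (SD, n = 6), with a log2 fold change of 1.16 (standard error 0.23, edgeR adjusted p = 0.0047). That call was lost without mouse 1 at 0 h (0.0546), with limma (0.0534) and in a fit of these 2 times alone (0.101). At 21 d it was 32.4 ± 2.28 TPM and did not pass. Zfyve9, an anchor that brings Smads to the receptor, passed over time with an adjusted p of 0.0447, which 25 of 30 fits without 1 mouse did not keep (0.0503 to 0.137), nor did 5 of 7 other settings. Tgfbr2 (adjusted p = 0.08), Tgfbr3, Acvrl1, Eng, Smad2, Smad3 and Smad4 did not pass.

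Of 15 genes listed as known responses to TGF-beta or as its feedback, 5 passed over time (33.3%). Ctgf, Smad7, Skil, Tgif1, Smurf2, Bambi, Bhlhe40, Nox4, Tagln and Acta2 did not pass. Lox, the collagen cross-linking enzyme, was 20.6 ± 3.28 TPM at 0 h, 166 ± 17.1 at 14 d and 115 ± 48.0 at 21 d (SD, n = 3). Its log2 fold change was 2.98 at 14 d (standard error 0.45, edgeR adjusted p = 0.000241) and 2.60 at 21 d (0.45, 0.000801), and both calls held without each single mouse. Pmepa1, a feedback inhibitor, rose by 1.27 on the log2 scale at 21 d (edgeR adjusted p = 0.0223), a call lost without mouse 1 or 3 at 0 h or mouse 1 or 2 at 21 d (0.0518 to 0.193). Cdkn2b, a cell cycle inhibitor that TGF-beta is known to induce, fell by 0.82 on the log2 scale at 7 d (edgeR adjusted p = 0.0223), a call lost without any one of the 0 h mice (0.0912 to 0.200), without the left-foot mice (0.0888), with limma (0.0826) and in a fit of these 2 times alone (0.267). Ski, a repressor of Smad signalling, passed over time (edgeR adjusted p = 0.0265) but at no single time against 0 h, and was lost without mouse 3 at 21 d (0.0538), with the date block as a covariate (0.0886), without the left-foot mice (0.0519) and with limma (0.151).

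Of these pathway lists, the matricellular families had the highest share, with 12 of 18 genes tested that passed over time (66.7%). Sparc, a collagen-binding protein of bone and dermis, was 912 ± 236 TPM at 0 h and 4220.1 ± 767 at 21 d (log2 fold change 2.31, standard error 0.32, edgeR adjusted p = 4.68e-05). Thbs2, the nearest relative of Thbs1, went from 29.4 ± 3.70 to 171 ± 53.7 (2.64, 0.35, 1.74e-05), and Fbln2, a basement membrane and elastic fibre protein, from 26.7 ± 4.22 to 70.04 ± 18.2 (1.46, 0.27, 0.00186). These 3 calls held without each single mouse. Spp1, osteopontin of bone matrix and macrophages, was highest at 7 d, at 1092 ± 650 TPM (SD, n = 6) against 129 ± 27.8 at 0 h (2.99, 0.37, 1.32e-05). One gene of the list, Nov, a CCN family member singled out after its values were seen, was lower than at 0 h, from 51.7 ± 7.53 TPM to 10.6 ± 10.6 at 21 d (-2.20, 0.57, 0.0334). That call was lost without any one of the 0 h mice or without mouse 1 or 2 at 21 d (0.0758 to 0.343) and in a fit of these 2 times alone (0.061).

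Of 13 integrin and other matrix receptor genes 4 passed over time (30.8%), and Itgb3 had the largest fold change of them. Itgb3, the beta 3 integrin subunit of platelets and osteoclasts and a receptor for fibronectin and periostin, was 10.5 ± 2.93 TPM at 0 h (SD, n = 3) and 82.7 ± 31.04 at 7 d (SD, n = 6), a log2 fold change of 2.94 (standard error 0.34, edgeR adjusted p = 6.39e-06), and this call held without each single mouse. At 14 d it was 17.0 ± 6.74 and did not pass. Cd47, a receptor of thrombospondin-1, rose by 0.59 at 7 d (0.0246), a call lost without any one of the 0 h mice (0.0987 to 0.128), with limma (0.19) and in a fit of these 2 times alone (0.132), and with limma it did not pass over time (0.0759). Itgb5 and the hyaluronan receptor Cd44 passed over time with adjusted p of 0.0268 and 0.0387, and these were lost in 18 and 17 of 30 fits without 1 mouse and under 2 and 4 of 7 other settings. Of the clot proteins, 2 of 6 were tested and 0 passed over time in edgeR, 1 at an unadjusted p under 0.05 and 1 by DESeq2. F13a1, the factor XIII subunit that cross-links fibrin, had an adjusted p of 0.07149 over time. Against 0 h it was lower at 21 d (log2 fold change -1.82, edgeR adjusted p = 0.0396), a call lost without mouse 1 or 2 at 0 h or any one of the 21 d mice (0.0817 to 0.289) and with limma (0.11).

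**Figure D4:**
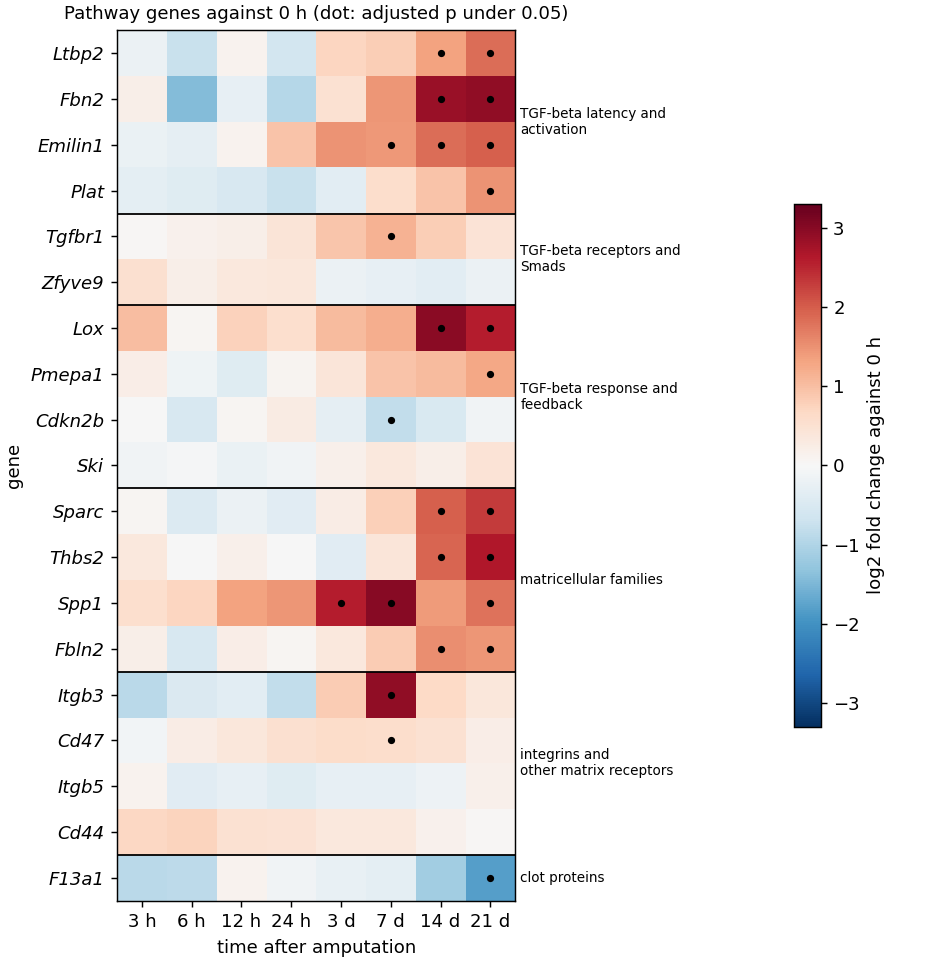
Log2 fold change against 0 h (colour) at each later time (horizontal axis) for the genes of each list with the lowest p over time (vertical axis, at most 4 a list), with a dot where the adjusted p is under 0.05. Dots stand at 3 d or later in every list, Itgb3 has its one dot at 7 d (2.94), and Fbn2, Lox, Sparc and Thbs2 have theirs at 14 d and 21 d.

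With CPM the counts scaled to the TMM-normalized library size, courses over the 30 mice were compared by Pearson correlation of log2(CPM + 1). The 3 genes with the course most like each of the 8 were found in this way. They were Srpx2 (0.90), Col3a1 (0.89) and Aebp1 (0.88) for Tgfb1, Loxl2, Sparc and Col5a1 (0.85, 0.85 and 0.84) for Tgfb2, and Col5a2, Loxl2 and Col6a1 (0.91, 0.91 and 0.90) for Tgfb3. For Postn they were Col12a1, Col6a3 and Mmp2 (0.95, 0.94 and 0.94), and for Fn1 Mmp2, Mxra8 and Bmp1 (0.93, 0.93 and 0.91). Tgfbi was most like Tnc (0.86), Crispld2 (0.84) and Vcam1 (0.83), and Tnc was most like Col6a3 (0.89), Crispld2 (0.89) and Vcam1 (0.88). Thbs1 stood apart, with no gene above the 0.76 of Tspan2, followed by C1qtnf3 and Itm2a (both 0.74). By rank (Spearman) these 3 values for Thbs1 were 0.56, 0.47 and 0.45. Within the 8 genes the highest correlation was that of Postn with Fn1 (0.90) and the lowest that of Tgfbi with Thbs1 (0.25). The points share libraries, depth and tissue composition, so these values describe the 30 mice only.

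The marker lists show what else differed between the same times. The summed fibroblast markers had a median of 2944 TPM at 0 h, 1802 at 6 h, 6562 at 7 d, 17207 at 14 d and 18135 at 21 d, and 4 of 6 (Col1a1, Col1a2, Col3a1 and Lum) changed over time while Dcn and Pdgfra did not pass. The osteoblast sum had a median of 204 at 0 h and 2891 at 21 d, and 5 of 6 passed. The keratinocyte sum ran from 58624 to 63981 at 0 h and from 25413 to 51531 at 21 d, and 0 of 6 passed over time in edgeR, with 3 at an unadjusted p under 0.05 and 3 by DESeq2. The macrophage sum (2 of 6 passed) had a median of 58.5 TPM at 0 h, 122 at 3 d and 52.3 at 21 d, and the neutrophil sum (2 of 5) had one of 19.9 at 0 h and 547 at 7 d. Of 5 endothelial markers 1 passed, of 5 erythroid markers 3, all of them lower at 21 d, and of 3 skeletal muscle markers 0 (0 at an unadjusted p under 0.05 and 0 by DESeq2). The part of these in the changes of the 8 genes was not tested.

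**Figure D5:**
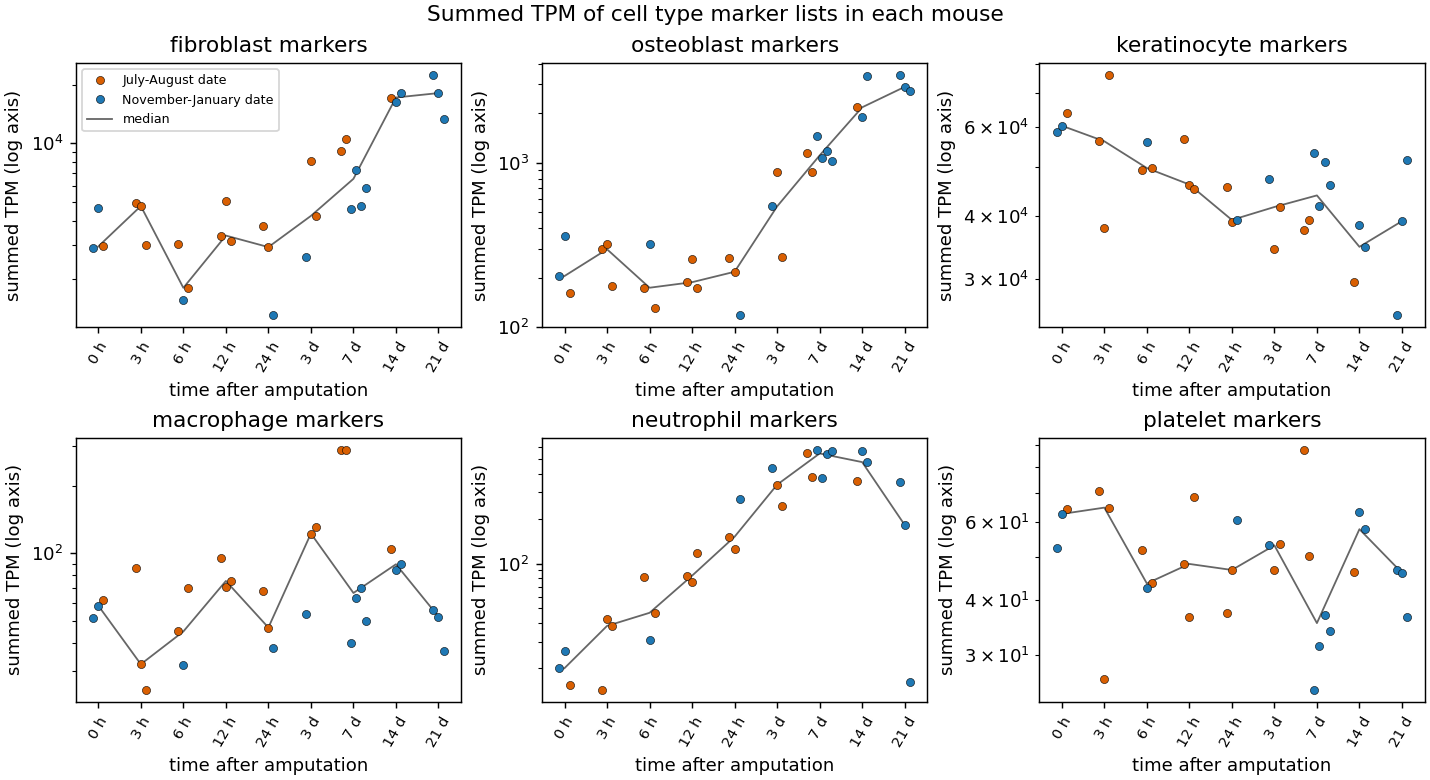
Summed TPM of 6 cell type marker lists (vertical axes, log scale) in each of the 30 mice by time after amputation (horizontal axes), coloured by date block, with a line through the medians. The fibroblast sum at 14 d and 21 d lies above every mouse of the earlier times, and the 2 July-August mice at 7 d have the 2 highest macrophage sums (289 TPM each).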

How the data were processed

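The labels credit CASAVA 1.8.2 and RSEM 1.2.3 and the mm10 build. Per the study's methods, single-end reads of poly(A) libraries were mapped with Bowtie to Ensembl genes. The authors deposited expected counts per gene and mouse, not normalized, of which 78.8% were whole (default tolerance of numpy.isclose), and TPM per mouse. Their averages per time point were not used here. Expected counts were rounded and tested with edgeR 4.0.16 (R 4.3.3; TMM, filterByExpr by time, quasi-likelihood, Benjamini-Hochberg at 0.05), all 30 mice in 1 fit without covariates. This kept 13793 of 20321 genes, holding 99.9% of counts. Methods were tested on simulated data. Pairs of mice at the same time all differed by more than sampling noise. Standard errors were derived as the size of the log2 fold change over the square root of the quasi-likelihood F statistic. TPM served to describe levels. Dates in the sample titles form 2 blocks, and the labels do not state what they mark. Alternatives were DESeq2 1.42.0 (size factors, test), other filters, date block as a covariate, no left-foot mice, limma 3.58.1 on log2(TPM + 1), fits of 2 times, and each mouse left out.

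The 8 genes, the gene and marker lists and the motifs were chosen with earlier results of these data known, and the TATA box after the promoters were seen. Named genes were the 8, up to 4 per list with the lowest p among those that passed over time (with none, the gene with the lowest p), and the 3 genes most correlated with each of the 8. For the receptor and response lists, the genes that did not pass are named too. One gene of a list is not reported here and was left out of its counts. Names and coordinates outside the promoters are those of GENCODE on GRCm38. Tables were handled in Python 3.11.15 with pandas 2.3.3 and numpy 2.4.6 and plots made with matplotlib 3.10.9.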

Additional observations from a re-analysis of the deposited data

How the results depend on the processing

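All 8 genes passed over time under each of 7 other settings and without each of the 30 mice. The counts of the 8 genes that passed against 0 h were less stable. At 6 h the 1 call was 0 with limma and in a fit of 2 times, at 12 h the 1 call was 2 with DESeq2's test and 0 with limma or the date block as a covariate, and at 24 h the 1 call was 2 with DESeq2's test and in a fit of 2 times. At 7 d the 3 calls were 2 with limma, and at 14 d the 4 calls were 3 with limma and 5 with the date block or in a fit of 2 times. At 21 d the 6 calls were 3 with limma, 5 with DESeq2's size factors or the filter of 1 CPM in 3 mice, 7 with DESeq2's test or the date block and 8 in a fit of 2 times. The 1 call of 14 d against 7 d was 0 in a fit of 2 times. Without each mouse in turn, the counts ran from 0 to 1 at 6 h and at 12 h, 1 to 2 at 24 h and at 3 d, 2 to 3 at 7 d, 2 to 4 at 14 d, 2 to 7 at 21 d and 0 to 1 for 14 d against 7 d. Leaving out 1 of 3 mice at 0 h or at the later time leaves 2 mice in that group.

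Of the lists, latency and activation had 7 genes that passed over time and 4 with limma. Receptors and Smads had 2, but 1 with DESeq2's size factors, a filter of 1 CPM in 3 mice, the date block or limma, 4 with DESeq2's test and 1 to 3 without single mice. Responses and feedback had 5, but 3 with limma or without mouse 3 at 21 d, and 3 to 5 without single mice. Integrins had 4, but 2 with no filter, 1 with limma and 2 to 5 without single mice. Clot proteins had 0, but 1 with DESeq2's test and 0 to 1 without single mice. The causes were not tested. Without division by length, the ligand shares at 0 h were 12.8% for Tgfb1 and 41.4% for Tgfb2, at 6 h 19.0% and 49.0%, and at 21 d 15.2% and 34.3%. Of 64 comparisons of a gene with 0 h, 9 changed sign without some mouse and 7 under another setting, and 0 of these had passed. The one among them with a log2 fold change over 0.5 in size was Postn at 3 h, with 0.63 and -0.01 with the date block as a covariate. By the numbers of mice in the study's methods each library was 1 mouse, so no paired analysis was run. One code in the titles recurs with the same date in mouse 3 at 0 h and mouse 2 at 12 h, and the labels do not say what it marks. The mice at 3 h, 12 h and 21 d are of 1 block each. At these times the covariate fit therefore relies on a block effect estimated from the times with mice of both blocks. With the block as a covariate, 7 genes passed at 21 d, Tnc and Postn among them, and Tnc at 12 h did not (0.078).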
